A study of Mus musculus with 2 samples.

Results

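Double-low macrophages were the tumour macrophages that carried complement C1q transcripts while holding few transcripts of a marker set that includes Mmp12, a secreted protease, and few of 4 interferon-linked genes. They came from a single-cell RNA study of tumours that the submitters describe as lung cancer xenografts and that were grown from LLC, the mouse Lewis lung carcinoma line. Each count is of unique molecular identifiers (UMIs), tags that mark single captured RNA molecules. Cells needed at least 500 detected genes and at most 20% mitochondrial UMIs. The macrophage gate asked for at least 20 Lyz2 UMIs and at least 5 UMIs of C1qa, C1qb and C1qc together per 10000 UMIs of the cell, at most 1 UMI of the T cell receptor genes Cd3d, Cd3e and Cd3g, and at most 2 UMIs of Hmga2, Tnfrsf12a and Igf2bp2, which mark the tumour cells. Gated cells were kept as double-low with under 3 UMIs of the Mmp12 marker set and under 5 UMIs of Ifnb1, Oasl1, Ifih1 and Ifit2 per 10000. This left 2297 cells of 24830 deposited, and of 6679 gated macrophages. All of these limits are measured levels, so the levels of these genes in the double-low cells are a description.

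Of the 2 libraries, 1 is the control and 1 comes from a tumour given a short hairpin RNA against Gfpt2, named here the knockdown library. The series asked what this knockdown does to the immune surroundings of the tumour. The labels give no host strain, age, day of collection, number of animals or hairpin sequence, and name no untransduced tumour. With 1 library per group, there is no replicate error to judge a difference by, no test was run, and the 95% intervals cover counting error only.

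C1q is the part of the complement system that recognises its targets, and tissue macrophages are its main source. Trem2 is a receptor for lipids and lipoproteins that signals through the adaptor Tyrobp, and Apoe, one of its ligands, carries cholesterol out of cells. In tumours, macrophages with C1q, Trem2 and Apoe form a common population that takes up dying cells and presents antigen on class II molecules, whereas macrophages with interferon-stimulated genes are often described as a state beside it.

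The control library held 165824226 UMIs in 11977 cells and the knockdown library 138402860 UMIs in 12853 cells, of which 11648 and 12560 passed the limits on genes and mitochondrial UMIs. Gfpt2, an enzyme of the hexosamine pathway and the target of the hairpin, had 295 control and 81 knockdown UMIs in the cells that passed. Its levels were 1.78 (1.58 to 2.00) and 0.586 (0.466 to 0.729) CPM, the gene's UMIs per 1000000 UMIs of the same cells. In what follows, a pair of values gives the control library first. Double-low macrophages held only 3 and 4 Gfpt2 UMIs, so the knockdown could not be read in these cells. The libraries shared 37 cell barcodes, and 7 control and 1 knockdown double-low cells carried one of them. No doublets were removed. The doublet caller Scrublet, with cells taken by rank of their score, marked 5.71% of control and 13.1% of knockdown double-low cells, and 5.63% and 24.5% by its own threshold.

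The control library gave 1225 double-low macrophages, 37.3% (35.6 to 39.0) of its gated macrophages, and the knockdown library 1072, or 31.6% (30.0 to 33.2). The shares follow from the limits, and the libraries differed in depth, with medians of 5326 and 3774 UMIs and 2056 and 1656 detected genes per double-low cell. With the gate applied to cells thinned to 3000 UMIs, leaving out shallower cells, the shares were 48.1% and 38.5%. The other gated cells were 778 control and 400 knockdown macrophages past the limit on the Mmp12 marker set alone, 1033 and 1714 past the interferon limit alone, and 250 and 207 past both. In the control library 97 cells lay just inside the interferon limit, at 4 to under 5 UMIs per 10000, and 85 lay just outside it, at 5 to under 6. Their Trem2 levels were 992 and 901 CPM, and in the knockdown library the corresponding 106 and 101 cells had 685 and 609 CPM. Cells thus lay close on both sides of the interferon limit, and the double-low class is a range of levels. It also held 634 control and 594 knockdown cells without a UMI of the 4 interferon-linked genes.

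The macrophage markers of the label were present in these cells, but they did not set them apart from the interferon macrophages, the class past the interferon limit alone. Trem2 was at 976 CPM (953 to 998) in control and 765 CPM (740 to 791) in knockdown double-low cells. The interferon macrophages had 840 and 729 CPM. Selenop, a secreted selenium carrier of resident macrophages, was at 772 and 556 CPM in the double-low cells, against 725 and 645 CPM in the interferon macrophages. Apoe made up 61628 and 49434 CPM of the double-low RNA, against 63944 and 59057 CPM in the interferon macrophages. Fcrls, an Fc receptor-like scavenger receptor, was at 324 and 280 CPM, against 320 and 343 CPM in the interferon macrophages. C1qa was at 9140 and 8147 CPM, and C1qc at 4431 and 3733 CPM. T-like cells had at least 3 Cd3 UMIs, under 20 Lyz2 UMIs per 10000 and at most 2 UMIs of Hmga2, Tnfrsf12a and Igf2bp2. In the same libraries they served as a measure of free RNA. Their levels were 44.8 and 22.6 CPM of Trem2, 32.2 and 29.7 CPM of Selenop and 1716 and 1528 CPM of Apoe. The Lyz2 limit leaves out cells with more macrophage RNA, so these levels may understate the background.

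Shares of cells gave the same picture once depth was made equal. In cells thinned to 2000 UMIs, Trem2 was detected in 79.1% (76.6 to 81.4) of control and 69.3% (66.1 to 72.3) of knockdown double-low cells, in 74.0% and 69.7% of interferon macrophages and in 6.43% and 2.94% of T-like cells. Macrophages past the limit on the Mmp12 marker set alone had higher Trem2 shares, at 86.1% and 83.8%. Their Selenop shares were lower, at 57.5% and 54.6% against 66.3% and 55.8% of double-low cells. Fcrls was detected in 37.4% and 34.8% of them, against 35.9% and 32.5%. The thinning left out 87 control and 199 knockdown double-low cells. Before thinning, the Trem2 shares of the double-low cells were 91.5% and 77.1%, at median depths of 5326 and 3774 UMIs, against 2824 and 2631 UMIs in T-like cells.

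Nor were the cells silent, as the word resting would have it. The chemokine Ccl4 was at 1240 and 1440 CPM, the neutrophil attractant Cxcl2 at 592 and 556 CPM, and the cytokines Tnf and Il1b at 203 and 213 CPM and at 196 and 245 CPM. Free RNA reached 615 and 1054 CPM for Ccl4 in T-like cells, which can make this chemokine themselves, and 8.32 and 11.6 CPM for Il1b. The part of free RNA in the Cxcl2 and Tnf levels was not tested. The interferon macrophages held more Ccl4, with 3795 and 4749 CPM, and more Tnf, with 509 and 631 CPM, whereas their Cxcl2, at 571 and 422 CPM, and Il1b, at 192 and 224 CPM, were not above the double-low levels. Of 23 genes of resident tissue macrophages, 17 had at least 200 UMIs, among them Pf4 at 378 and 294 CPM, Mrc1 at 277 and 194 CPM, Stab1 at 207 and 146 CPM and Maf at 196 and 169 CPM. Some members were nearly missing. Lyve1 and Cd209f had no UMI in the double-low cells outside sub-cluster 3, described further on, Timd4 had at most 1 UMI and Cd163 at most 2. The cells are therefore named here by their rule, as double-low macrophages.

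**Figure D1:**
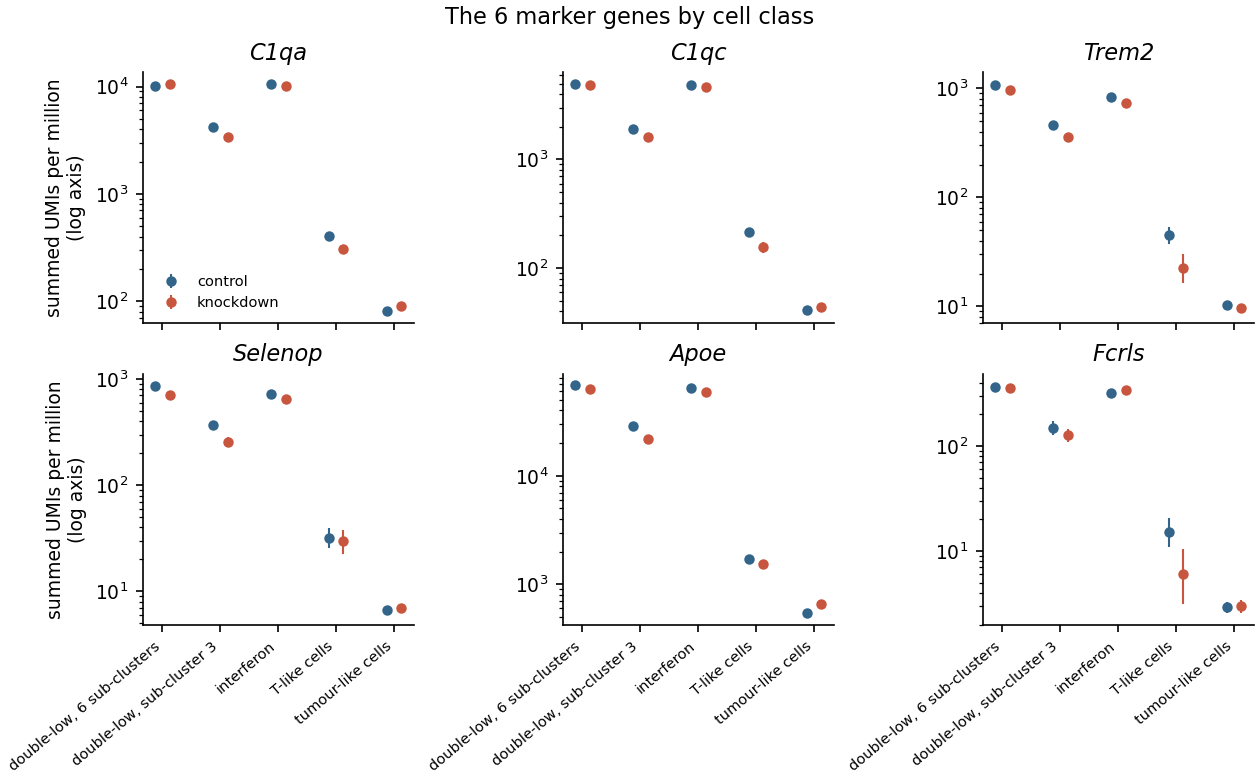
Levels of the label's markers in CPM on a log axis, by class and library, with exact Poisson 95% intervals mostly smaller than the points. The double-low cells are drawn as sub-cluster 3, described further on, and the other 6 sub-clusters, whose levels are like those of the interferon macrophages and far above those of T-like and tumour-like cells.

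Double-low macrophages were clustered without the genes of the gate to show how they vary. The clustering used every other gene, so leading genes describe the clusters, which are called by number. It gave 7 sub-clusters, each found in both libraries. Their sizes are listed to account for the cells, and no result is drawn from them, since leading genes such as Chil3 and the class II genes differed between the libraries.

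Sub-cluster 1, with 429 control and 267 knockdown cells, was led by Calhm6, the T cell attractant Cxcl9 (738 and 722 CPM), the class II regulator Ciita, Ighm, H2-Eb1 (7641 and 10277 CPM) and the complement gene C4b. Sub-cluster 2, with 244 and 204 cells, was led by Ell2, Cxcl2 (1308 and 1400 CPM), Pde4b, Mpp7, the early-response factor Nr4a3 and the endotoxin co-receptor Cd14 (479 and 763 CPM). Sub-cluster 4, with 202 and 186 cells, was led by Hmox1, the enzyme that breaks down heme (372 and 366 CPM), the heat shock genes Hspa1b and Hspa1a, and the lectin Lgals3. Sub-cluster 5 held 100 and 32 cells and was led by the histone genes H2ac8, H2ac24 and H1f5 and the proliferation marker Mki67 (260 and 191 CPM). H2ac8 and H2ac24 are near-identical copies, so the split of reads between them is uncertain.

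Sub-cluster 6, with 98 and 32 cells, came nearest to the Trem2 and lipid programme of the label. It was led by the proton pump subunit Atp6v0d2, Gpnmb (247 and 334 CPM), the stress cytokine Gdf15, the secreted matrix protein Spp1 (1398 and 2387 CPM), Ldlrad3 and the growth factor Igf1. Apoe reached 119476 and 108833 CPM in it, Selenop 1630 and 1489 CPM and Trem2 1616 and 1659 CPM. Sub-cluster 7, with 60 and 16 cells, was led by Chil3, Plac8 (1167 and 1443 CPM), Ly6c2 (541 and 427 CPM), Hp, Napsa and F10. Plac8 and Ly6c2 are genes of classical monocytes. Its C1qa level was 3115 and 4288 CPM and its Selenop level 184 and 224 CPM, the lowest C1qa in the control library and the lowest Selenop in both libraries among the 7 sub-clusters.

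Sub-cluster 3 was led by genes of mesenchymal cells. Its 92 control and 335 knockdown cells had as leading genes the matrix genes Dcn (1178 and 864 CPM), Col3a1 (1897 and 1500 CPM), Col6a1 and Col6a2, the growth factor Ptn and the transcription factor Ebf1. Tumour-like cells were defined by at least 5 UMIs of Hmga2, Tnfrsf12a and Igf2bp2, no Ptprc UMI and under 20 Lyz2 UMIs per 10000. They had 684 and 728 CPM of Dcn and 875 and 1104 CPM of Col3a1. C1qa in sub-cluster 3 was at 4170 and 3410 CPM, below the level of 10124 and 10526 CPM in the other sub-clusters together. Xist, the RNA of the inactive X chromosome, was at 148 and 179 CPM, between the 3.85 and 4.51 CPM of tumour-like cells and the 506 and 486 CPM of the other double-low cells. Ptprc, the leukocyte antigen CD45, was at 108 and 152 CPM, against 287 and 333 CPM. By rank, Scrublet marked 68 of the control cells (73.9%) and 138 of the knockdown cells (41.2%) as doublets, and by its own threshold 67 and 255. In the other 6 sub-clusters together it marked 2 cells in each library by rank. The cells differed in depth between the libraries, with medians of 13414 UMIs in the control and 2838 UMIs in the knockdown library. The part of doublets and of free RNA in these cells was not tested.

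A count made without clustering overlapped this sub-cluster in part. Its 10 genes include all the leading genes of sub-cluster 3, so the overlap is no independent check. Double-low cells with at least 20 UMIs per 10000 of 10 mesenchymal genes (Col3a1, Col6a1, Col6a2, Dcn, Postn, Sparc, Ptn, Fstl1, Serpinh1 and Ebf1) numbered 75 in the control library, 6.12% (4.85 to 7.61), and 283 in the knockdown library, 26.4% (23.8 to 29.1). They included 66 of the 92 control and 274 of the 335 knockdown cells of sub-cluster 3. The share was higher in the knockdown library among the interferon macrophages as well, at 2.42% and 13.9%. Tumour-like cells reached 69.2% and 81.2%. At a finer clustering, 3 control and 22 knockdown cells formed a cluster led by the cytotoxic genes Gzmc, Gzmb, Nkg7 and Xcl1, most of them from sub-cluster 3. Since this sub-cluster was led by mesenchymal genes, most results between the libraries are given with and without it, and some only without it. That choice was made after seeing the data.

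**Figure D2:**
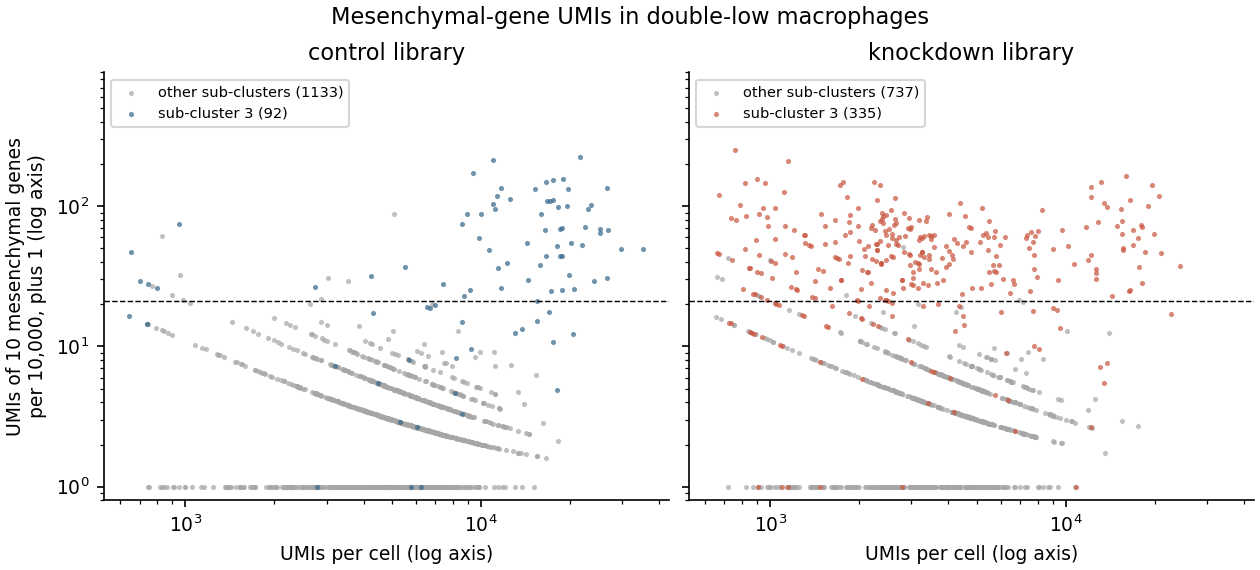
Double-low macrophages of each library by UMIs per cell (x axis) and by UMIs of the 10 mesenchymal genes per 10000 plus 1 (y axis), both on log axes, 1 point per cell, with sub-cluster 3 in colour and a dashed line at 20 per 10000. The 92 control cells of sub-cluster 3 lie mostly at high depth, whereas the 335 knockdown cells spread over the whole range of depths, and 75 control and 283 knockdown cells reach the line.

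Against the other gated macrophages, few genes stood out beyond those of the rule. With the gate on thinned cells many more did, as counted in the section on processing. The rule used this contrast, so the values describe the cells. Of 9836 genes with at least 200 UMIs, 11 (0.112%) were at least 2-fold higher in the double-low cells in both libraries and 29 (0.295%) at least 2-fold lower. The higher genes had low levels and included the growth factor receptor Pdgfra, at 11.1 against 5.08 CPM in control and 20.3 against 9.29 CPM in knockdown cells, and the related receptor Pdgfrb, at 7.77 against 3.81 CPM and 12.7 against 5.79 CPM. With the gated cells of at least 20 mesenchymal UMIs per 10000 left out, 0 of 9249 genes (0%) were higher and 31 (0.335%) were lower. Among the 29 lower genes, 6 were genes of the gate. Others were antiviral genes, such as Rsad2 at 89.7 against 373 CPM in the control and 115 against 541 CPM in the knockdown library, Ifit1 at 55.4 against 196 CPM and 78.7 against 311 CPM, and Mx1 at 30.4 against 80.0 CPM and 30.9 against 117 CPM. Acod1, the enzyme that makes itaconate in activated macrophages, was at 34.8 against 88.9 CPM and 35.3 against 99.7 CPM.

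Gene lists by function are given as counts. Of 33 interferon response genes, 29 were lower in the double-low cells in both libraries and 2 were higher. Inflammatory cytokines and chemokines were lower in both for 18 of 23 genes, and the lipid-associated and Trem2 genes for 17 of 20. Of 18 resident macrophage genes, 8 were lower in both and 0 were higher, and of 12 class II genes 3 were lower and 1 was higher. Over all 9836 genes, 4427 were higher and 2019 lower in both. With few mesenchymal UMIs, the resident counts were 5 higher and 5 lower, and 8 of 12 class II genes were higher and 3 lower, against 3483 higher and 1932 lower over all 9249 genes.

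Between the libraries, most genes that were higher over all double-low macrophages were genes with high levels in sub-cluster 3. Of 6762 genes with at least 200 UMIs in the double-low cells, 211 (3.12%) were at least 1.5-fold higher in the knockdown library and 43 (0.636%) at least 1.5-fold lower. The median log2 ratio of knockdown over control CPM was 0.03, and 44.7% of the genes were below 0. Scaling by TMM factors, which assume that most genes do not differ, lowered every log2 ratio by 0.075 and gave 171 higher and 76 lower genes. Scaling by the median of ratios gave 175 and 74. Of the 211 higher genes, 184 were at least 2-fold higher in sub-cluster 3 than in the other double-low cells. Of the 43 lower genes 0 were, and the share over all 6762 genes was not counted. Without that sub-cluster, 1133 control and 737 knockdown cells with 6227995 and 3148580 UMIs remained, 5619 genes reached 200 UMIs, and 35 of them (0.623%) were higher and 57 (1.01%) lower. Of these genes 47.0% were above 0 and 53.0% below. Of the 211 and 35 higher genes, 12 were shared, 5.69% of the first and 34.3% of the second list, while 153 of the 211 fell under the minimum.

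The granzymes Gzmb and Gzmc, killing enzymes of cytotoxic lymphocytes, had the highest ratios. Gzmb was at 1.34 and 40.2 CPM, but 187 of its 190 knockdown UMIs lay in sub-cluster 3 and 1 cell held 32.6% of them. Without that sub-cluster it was at 1.45 and 0.953 CPM. Gzmc was at 3.89 and 55.0 CPM, with 65.8% of its knockdown UMIs in 1 cell, and at 2.89 and 2.54 CPM without the sub-cluster. Leaving out the cells with at least 20 mesenchymal UMIs per 10000 instead did not lower their log2 ratios, at 4.98 for Gzmb and 4.79 for Gzmc. Next came Fabp4, a fatty acid carrier, at 8.98 and 35.7 CPM, with 64 of its 169 knockdown UMIs (37.9%) in 1 cell. Without the sub-cluster Fabp4 was at 3.69 and 6.67 CPM, against 35.8 and 39.7 CPM in T-like cells and 20.3 and 57.2 CPM in tumour-like cells. The cartilage factor Sox9 was at 13.9 and 40.8 CPM, the basement membrane gene Hspg2 at 17.6 and 51.4 CPM and the coagulation starter F3 at 16.4 and 47.6 CPM. Without sub-cluster 3 these were at 4.17 and 8.26 CPM, 4.50 and 10.2 CPM, and 4.17 and 5.40 CPM. With Scrublet doublets removed by rank, the log2 ratios rose from 1.55 to 2.41 for Sox9, from 1.55 to 2.55 for Hspg2, from 1.54 to 2.44 for F3 and, for the growth hormone receptor Ghr, from 1.32 to 2.48. Hbb-bs, a haemoglobin chain with a near-identical copy, was at 9.25 and 33.6 CPM, and at 10.3 and 18.1 CPM without sub-cluster 3. T-like cells had 8.68 and 35.2 CPM of Hbb-bs and tumour-like cells 1.66 and 20.9 CPM. The part of free RNA in the Fabp4 and Hbb-bs ratios was not tested. The other high ratios were of Kcnq5, Aqp1, Hmga2, Ghr and Zfpm2, between 1.32 and 1.43 on the log2 scale, and between -0.45 and 0.55 without the sub-cluster. Removing Scrublet doublets raised Kcnq5 to 2.03 and Zfpm2 to 2.27. With the gate on thinned cells 9 of the 12 highest ratios moved outside their ranges, all toward 0, such as Gzmb to 3.54, Hbb-bs from 1.86 to 1.05 and Sox9 to 0.83. Hmga2 is a gene of the gate.

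Chil3, a chitinase-like protein of monocytes and alternatively activated macrophages, had the lowest ratio. It held 350 UMIs in 53 control cells, 1 of which had 24.6% of them, and 11 UMIs in 7 knockdown cells, for 46.9 and 2.33 CPM and a log2 ratio of -4.33 (-5.49 to -3.34). Without sub-clusters 3, 5 and 7 it held 45 and 7 UMIs, or 8.76 and 2.44 CPM, and the log2 ratio was -1.84 (-3.58 to -0.35). It was low in the knockdown library in another class as well, at 25.3 and 0.453 CPM in interferon macrophages with few mesenchymal UMIs. In sub-cluster 7 it was at 1300 and 40.6 CPM, while the monocyte gene Plac8 of the same cells was at 1167 and 1443 CPM. Among the next lowest were Dglucy, Relt, Lpl, Marchf3, Cdca3, Parvg, Ptpn7, Rffl, F13a1 and Cd37, with log2 ratios from -0.96 to -0.75. Lpl, a lipase of lipid-laden macrophages, was at 25.3 and 14.0 CPM, and F13a1, a clotting factor subunit of monocytes and resident macrophages, at 50.3 and 29.8 CPM. Without sub-cluster 3 their log2 ratios were -0.58 (-1.17 to 0.00) and -0.48 (-0.89 to -0.07).

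**Figure D3:**
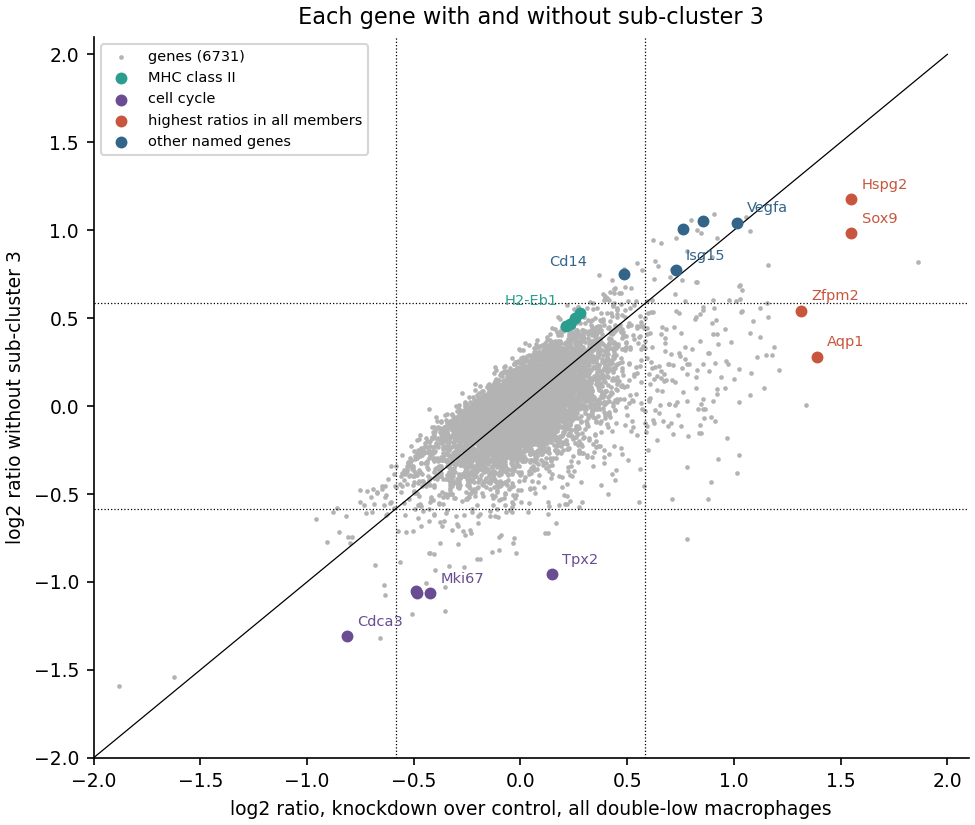
Log2 ratio of knockdown over control CPM in all double-low macrophages (x axis) and without sub-cluster 3 (y axis) for 6731 genes, 1 point per gene, with Chil3 outside the axes and dotted lines at 1.5-fold. Zfpm2 and Aqp1, high on the x axis, lie nearer to 0 on the y axis, the class II genes lie above the diagonal, the cell cycle genes below it, and Vegfa stays near 1 on both.

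Without sub-cluster 3, the highest ratios belonged to other genes. Mgl2, a C-type lectin of macrophages, was at 44.3 CPM (276 UMIs) and 91.8 CPM (289 UMIs), a log2 ratio of 1.05 (0.71 to 1.39). Vegfa, the growth factor of blood vessels, was at 70.8 and 146 CPM, a log2 ratio of 1.04 (0.77 to 1.31). T-like cells, which measured free RNA, had 75.2 and 63.8 CPM of Vegfa and 18.8 and 7.54 CPM of Mgl2, and neither gene was higher in their knockdown cells. Tumour-like cells had 150 and 165 CPM of Vegfa. The control double-low level of Vegfa was below that of T-like cells, so free Vegfa RNA could not be told apart from their own there. Vegfa was detected in 12.2% (10.2 to 14.3) of control and 21.5% (18.3 to 24.9) of knockdown cells thinned to 2000 UMIs, against 7.60% and 9.09% of T-like cells. Unthinned, those shares of the double-low cells were 23.2% and 32.7%. The Vegfa ratio was above 0 in each of the 6 sub-clusters, with a range above 0 in 3 of them.

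Stap1, an adaptor of macrophage receptors, was at 30.2 and 60.7 CPM, Cytip, a regulator of adhesion, at 30.3 and 58.8 CPM and the phosphatase Dusp5 at 18.8 and 34.6 CPM. The heat shock gene Hsph1 was at 23.1 and 46.1 CPM, and Hspb1, another chaperone, had a log2 ratio of 0.93 (0.42 to 1.44). Over all double-low cells, its 134 control UMIs lay in 20 cells, 1 of which held 26.9%, and its 134 knockdown UMIs in 33 cells, 1 of which held 17.9%. The range treats UMIs as independent and does not cover this spread between cells. H19, an imprinted RNA of the tumour cells, was at 30.5 and 54.9 CPM. T-like cells had 208 and 245 CPM of H19, 206 and 220 CPM of Cytip, 181 and 179 CPM of Dusp5, 72.0 and 85.9 CPM of Hsph1 and 56.8 and 57.8 CPM of Stap1. Tumour-like cells had 309 and 500 CPM of H19 and 71.6 and 94.3 CPM of Hsph1, so free RNA of these genes could not be told apart from that of the double-low cells. Their Dusp5 levels were lower than those of the double-low cells, and they had under 1 CPM of Cytip and of Stap1. Slfn4, Gpr35, Gbp2b and Isg15 completed the 12 highest, with log2 ratios from 0.77 to 0.81.

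No gene of class II antigen presentation reached 1.5-fold between the libraries, with or without sub-cluster 3, but the ratios of the class II chains were above 0 without it. Without sub-cluster 3, the chain H2-Ab1 was at 4828 and 6820 CPM, a log2 ratio of 0.50 (0.46 to 0.53). The chains H2-Aa and H2-Eb1 were at 3346 and 4585 CPM and at 5105 and 7362 CPM, and Cd74, the invariant chain that guides class II molecules to the endosome, at 13006 and 17964 CPM. These 4 genes were higher in the knockdown library in each of the 6 sub-clusters, with ranges above 0. In sub-cluster 1, the richest in class II, H2-Ab1 was at 6973 and 9683 CPM, and in sub-cluster 5 at 2235 and 3629 CPM. In sub-cluster 3 it was at 2004 and 1969 CPM.

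The loading factors H2-DMa and H2-DMb1 were at 628 and 723 CPM and at 576 and 660 CPM. Ciita, which switches on class II genes, was at 57.0 and 61.9 CPM, with a range from -0.24 to 0.48 on the log2 scale that holds 0. Cathepsin S, encoded by Ctss, which trims the invariant chain, was at 3878 and 3844 CPM. Over the list, 9 of 11 genes were above 0 and 2 below, against 47.0% of all genes above 0, with a median log2 ratio of 0.20 against -0.02 over all genes. With sub-cluster 3 included, 5 of 12 were above 0 and the median was -0.01, against 55.3% and 0.03. T-like cells also held more class II RNA in the knockdown library, with 226 and 417 CPM of H2-Ab1 and 604 and 998 CPM of Cd74, and the part of this in the double-low values was not tested. Without sub-cluster 3, 8 of 13 class I genes were above 0, with a median of 0.09. With it, 10 of 13 were above 0, with a median of 0.10. H2-Q7 was the highest of them without sub-cluster 3, at 193 and 280 CPM.

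**Figure D4:**
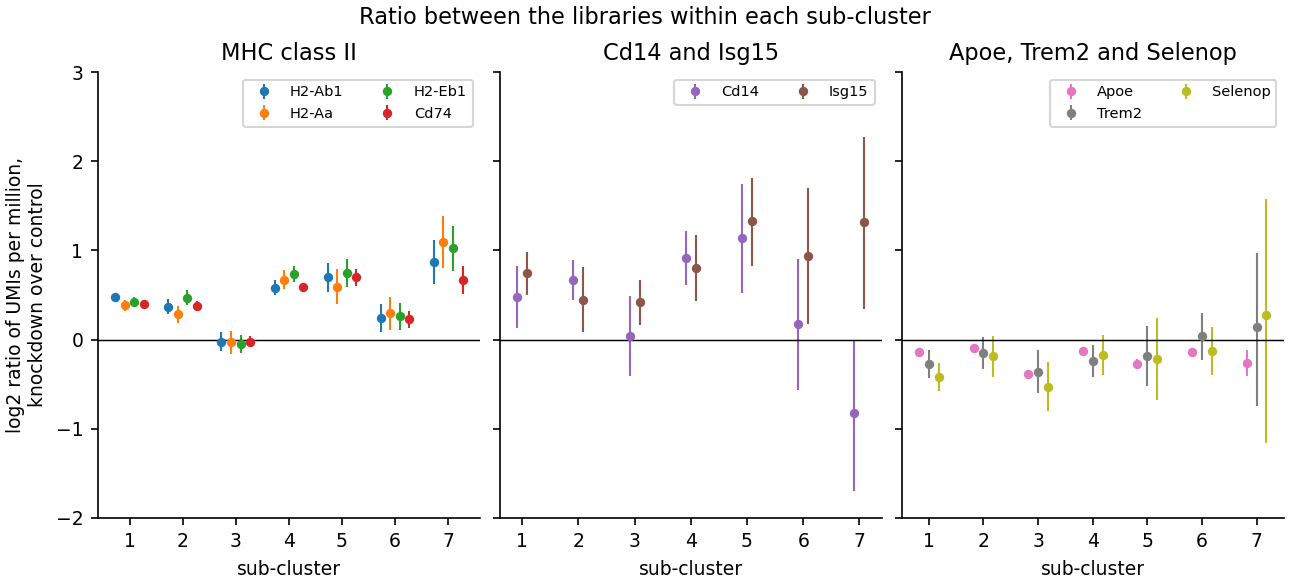
Log2 ratio of knockdown over control CPM of class II genes, Cd14, Isg15, Apoe, Trem2 and Selenop in each of the 7 sub-clusters, with the range that both Poisson intervals allow. The class II genes lie above 0 and Apoe below 0 in the 6 sub-clusters other than 3, where class II ratios are near 0.

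Few genes of resident macrophages passed 1.5-fold between the libraries, although most ratios were below 0. Over all double-low cells, 15 of 17 genes of the list were below 0, 2 of them by at least 1.5-fold, with a median of -0.36, against 0.636% of all genes by that measure and a median of 0.03. Without the sub-cluster, 13 of 16 were below 0, 1 by at least 1.5-fold, against 1.01% of all genes, with a median of -0.15 and a range from -0.35 to 0.01 that holds 0. Selenop was at 852 and 706 CPM, a log2 ratio of -0.27 (-0.37 to -0.17). The mannose receptor Mrc1 was at 307 and 244 CPM, and Gas6, which bridges dying cells to the receptors Mertk and Axl, at 62.3 and 41.0 CPM, a log2 ratio of -0.60 (-1.01 to -0.21). Fcrls was at 359 and 356 CPM, with no detectable difference at this depth. The growth factor receptor Csf1r was at 353 and 320 CPM and Mertk at 168 and 152 CPM, each with a range that holds 0.

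Trem2 and the lipid-associated genes differed little. Without sub-cluster 3, Trem2 was at 1078 and 971 CPM, a log2 ratio of -0.15 (-0.24 to -0.07), and its adaptor Tyrobp at 2114 and 2018 CPM. Thinned to 2000 UMIs, 82.2% (79.8 to 84.5) of control and 79.0% (75.6 to 82.1) of knockdown cells had Trem2. Apoe was at 68189 and 63286 CPM, a log2 ratio of -0.11 (-0.12 to -0.10), and below 0 with its range in each of the 6 sub-clusters. Gpnmb and Spp1 were at 50.7 and 34.6 CPM and at 544 and 478 CPM, although within sub-cluster 6 both had the higher level in the knockdown library. The fatty acid carrier Fabp5 was at 390 and 458 CPM, the lipid droplet coat Plin2 at 220 and 267 CPM and Lgals3 at 1346 and 1534 CPM. Of 18 genes in the list 12 were below 0 and 6 above, against 53.0% of all genes below 0, with a median of -0.07, and 0 reached 1.5-fold in either direction. Over all double-low cells the median was -0.13, with 1 gene of 19 higher and 1 lower by that measure, Fabp4 and Lpl, against 3.12% and 0.636% of all genes.

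The C1q genes themselves, which the gate used, were at 10124 and 10526 CPM for C1qa, 8249 and 8714 CPM for C1qb and 4930 and 4800 CPM for C1qc. The complement list had a median of -0.04, with 6 of 13 genes above 0. In the phagocytosis list, Fcgr4, an activating antibody receptor, was highest, at 297 and 436 CPM, a log2 ratio of 0.56 (0.41 to 0.70), and Gas6 was lowest. Its median was -0.04 over 17 genes. Among genes of cholesterol efflux and lipid handling, the phosphatase Acp5 was highest, at 199 and 258 CPM, and the endocytic receptor Lrp1 lowest, at 192 and 145 CPM. The median of that list was -0.07. With sub-cluster 3 the complement median was -0.18, with 2 of 13 genes above 0. The phagocytosis median was -0.24, with 3 of 18 above 0, and the lipid handling median was -0.14. C1qa, C1qb and C1qc were then at 9140 and 8147 CPM, 7420 and 6757 CPM, and 4431 and 3733 CPM.

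Of the 30 genes tested in the interferon response list without sub-cluster 3, and the 31 with it, Isg15 alone was at least 1.5-fold higher in the knockdown library, against 0.623% and 3.12% of all genes. Slfn4 and Gbp2b, interferon-inducible genes outside that list, were at 21.7 and 38.1 CPM and at 26.0 and 44.5 CPM without sub-cluster 3. The limit on Ifnb1, Oasl1, Ifih1 and Ifit2 caps related genes in both libraries, so the ratios describe cells below it. Isg15, a ubiquitin-like antiviral modifier, was at 223 and 381 CPM without sub-cluster 3, a log2 ratio of 0.77 (0.61 to 0.93), and above 0 with its range in each of the 6 sub-clusters. T-like cells had 400 and 530 CPM of it and tumour-like cells 249 and 386 CPM, levels at or above those of the double-low cells, so free Isg15 RNA could not be told apart from their own. The master regulator Irf7 was at 261 and 314 CPM and the tether Bst2 at 1288 and 1550 CPM. Cxcl9 and Cxcl10, which attract T cells, were at 495 and 460 CPM and at 245 and 244 CPM, each with a range that holds 0. Over the list 23 of 30 genes were above 0, against 47.0% of all genes, with a median of 0.15 and a range from -0.20 to 0.44 that holds 0. With sub-cluster 3 the median was 0.24 over 31 genes.

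In the inflammatory list, the genes at least 1.5-fold higher in the knockdown library changed with the cells used, with 2 of 20 over all double-low cells and 2 of 18 without sub-cluster 3, against 3.12% and 0.623% of all genes. Over all double-low cells they were the prostaglandin enzyme Ptgs2, at 13.8 and 24.5 CPM, and the chemokine Cxcl1, at 21.8 and 39.1 CPM, whereas without sub-cluster 3 they were Cd14 and Il1b. Over all double-low cells Cd14 was at 245 and 343 CPM and Il1b at 196 and 245 CPM. Without sub-cluster 3, Cd14 was at 270 and 454 CPM, a log2 ratio of 0.75 (0.60 to 0.89), against 17.4 and 20.6 CPM in T-like cells. It was above 0 in 5 of the 6 sub-clusters and below 0 in sub-cluster 7, at 789 and 447 CPM. Il1b was at 218 and 328 CPM, a log2 ratio of 0.59 (0.42 to 0.76). The chemokines Ccl3, Ccl4 and Ccl5 were at 227 and 286 CPM, 1343 and 1671 CPM, and 382 and 503 CPM. Ccl8, which attracts monocytes and T cells, was lower, at 1342 and 1123 CPM, a log2 ratio of -0.26 (-0.34 to -0.18). Ccl2 and Cxcl2 were at 858 and 884 CPM and at 681 and 692 CPM, with no detectable difference at this depth. Of 18 genes 12 were above 0 and 6 below, against 47.0% of all genes above 0, with a median of 0.11 and a range from -0.07 to 0.33 that holds 0. With sub-cluster 3, 10 were above 0 and 10 below, and the median was 0.033, against 0.027 over all genes.

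Several proliferation genes were lower in the knockdown library once sub-cluster 3 was left out. Mki67 was at 45.1 CPM (281 UMIs) and 21.6 CPM (68 UMIs), a log2 ratio of -1.06 (-1.60 to -0.55). The ubiquitin enzyme Ube2c, which drives exit from mitosis, was at 92.3 and 44.5 CPM. Cdca3, Rfc5, Spc24, Prc1, Aurkb, Tpx2, Racgap1 and H2ac24, which act in replication, mitosis or chromatin packing, were also among the 12 lowest, with log2 ratios from -1.31 to -0.90. The membrane protein Plp2 was the only other gene of the 12 beside Chil3. Of 18 cell cycle genes, 17 were below 0, 7 of them by at least 1.5-fold, with a median of -0.48. Over all genes 53.0% were below 0, and 1.01% by at least 1.5-fold. Without sub-clusters 5 and 7 as well, the ratio of Mki67 was -0.33, those of Aurkb and H2ac24 were above 0, at 0.26 and 0.64, and 7 of 9 genes of the list were below 0, with a median of -0.20 against -0.003 over all genes. With all double-low cells the median was -0.15 and 0 of 22 passed 1.5-fold, and sub-cluster 3 of the knockdown library held 48.7 CPM of Mki67.

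Most genes of glycolysis and low oxygen had ratios above 0, few past 1.5-fold. Without sub-cluster 3, 14 of 15 were above 0, with a median of 0.16, and 1 passed 1.5-fold, against 47.0% of all genes above 0, 0.623% past 1.5-fold and a median of -0.02. With it, 17 of 17 were above 0, with a median of 0.21 and 3 past 1.5-fold, against 55.3% and 3.12% of all genes. In the iron and heme list the median was 0.04 over 7 genes without the sub-cluster. Without it, 14 of 20 macrophage transcription factors were above 0, with a median of 0.10. Of 19 lysosomal genes, 8 were above 0, with a median of -0.01. With sub-cluster 3 these counts were 8 of 21 and 2 of 19, with medians of -0.02 and -0.18. In the hexosamine pathway, to which Gfpt2 belongs, 2 of 7 genes were above 0 without sub-cluster 3. The median was -0.12, with summed levels of 344.1 and 322.7 CPM. With it, 6 of 8 were above 0, with a median of 0.06 and summed levels of 348.6 and 352.5 CPM. Without the sub-cluster, the anti-inflammatory list had a median of -0.10, with Mgl2 highest and Chil3 lowest among 11 genes. The checkpoint list had a median of 0.14 over 10 genes. With sub-cluster 3 these medians were -0.24 and 0.05, and that of the iron and heme list was -0.03.

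Markers of other cell types are given as sums without sub-cluster 3. The summed level of 10 T cell genes was 12.04 and 12.07 CPM and that of 8 natural killer cell genes 3.69 and 6.99 CPM, with Ncr1 and Klrb1c at 0. Over all double-low cells the natural killer sum was 10.99 and 59.41 CPM. The 12 alveolar macrophage genes summed to 83.98 and 33.67 CPM, of which Chil3 gave 56.2 and 2.86 CPM, Atp6v0d2 12.5 and 14.0 CPM and Pparg 9.47 and 11.1 CPM. Car4, Krt79 and Cidec were at 0 and Siglecf at 11 and 1 UMIs. Of 12 dendritic cell genes, Bst2, which interferon also raises, made up nearly all of the summed 1372 and 1642 CPM, and Cd209a was at 0. The 12 monocyte genes summed to 640.2 and 489.7 CPM, with 6 of the 7 that reached 200 UMIs below 0. Over all double-low cells the monocyte sum was 919.4 and 1256 CPM, with 4 of 8 genes above 0. The 10 neutrophil genes summed to 79.16 and 53.04 CPM, and the 8 B and plasma cell genes to 78.03 and 99.09 CPM. The tumour and fibroblast genes summed to 337.5 and 394.1 CPM, of which Ccnd1 gave 193 and 214 CPM, and with sub-cluster 3 to 750.9 and 1137 CPM. Their part in the ratios above was not tested.

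Interferon macrophages with few mesenchymal UMIs are given beside these values for the same genes. The difference between the classes was not tested, and each class has its own cells. H2-Ab1 was at 6480 and 7980 CPM in interferon macrophages, a log2 ratio of 0.30 (0.27 to 0.33). Vegfa was at 46.0 and 95.6 CPM, so it was higher in the knockdown library in both classes. Cd14 was at 198 and 227 CPM, and Apoe at 65293 and 64183 CPM. Selenop and Gas6 had ranges that hold 0. The cell cycle list had a median of -0.48, the class II list 0.12, and the lipid-associated list -0.03.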

How the data were processed

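Single-cell RNA counts were measured on the 10x Genomics platform in 1 control and 1 knockdown library. The authors deposited raw UMI counts, as whole numbers for every gene in every cell. Cell Ranger 6.1.0 made them, per the file headers, whereas the submitters' processing notes name Cell Ranger 3.1.0. The genome build and annotation are not given in the sources used here, so no coordinates are printed. Genes were taken by the symbols the files pair with their identifiers.

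Cells were gated as described in the report, with no doublet removal. Counts were summed over the cells of a class and library and divided by their total (CPM), with exact Poisson intervals at 95%. Ratios are knockdown over control on the log2 scale, with the range that both intervals allow. Shares have exact Clopper-Pearson intervals. Genes needed at least 200 UMIs. The depth was 7460578 control and 4729740 knockdown UMIs in double-low cells.

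Sub-clusters came from scanpy 1.11.5 with leidenalg 0.10.2, and scaling alternatives from edgeR 4.0.16 (TMM) and DESeq2 1.42.0 (median of ratios), with no test. T-like cells may hold some mixed cells. Leading genes were the 6 highest by fold, detected in at least 25% of a sub-cluster's cells. Named were the 12 highest and 12 lowest ratios with a proper symbol, genes of the 5 lead lists and the label's markers, and the extremes of other lists. Other genes named, such as Xist, Ptprc and single markers of other cell types, were chosen after their values were seen. The cells and lists were chosen with earlier results of these data known. Only the comparison of summed counts was tested on simulated data, with Poisson counts that hold no spread between cells. The gate, thinning, doublet calls and clustering were not simulated. Some genes, among them a member of the Mmp12 marker set, are not reported here.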

Additional observations from a re-analysis of the deposited data

How the results depend on the processing

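No paired analysis was possible because each group has 1 library. The 211 higher genes became 359 with every cell weighted equally, 65 without cells holding cell cycle UMIs, 743 at a minimum of 50 UMIs, 25 at 1000 UMIs and 52 at 2-fold. The 43 lower genes became 67 with the gate on thinned cells, 98 with equal weights, 76 with TMM, 74 with the median of ratios, 24 without cell cycle cells, 197 at 50 UMIs, 3 at 1000 UMIs and 3 at 2-fold. Settings chosen after seeing the data gave 35 higher genes without sub-cluster 3, 39 in cells with few mesenchymal UMIs, and 35 higher and 24 lower without sub-clusters 3, 5 and 7. The resident median went from -0.36 to -0.15 without sub-cluster 3, and the class II median from -0.01 to -0.14 with equal weights. Shares of double-low cells were 33.7% and 27.8% with the Mmp12 marker set limit per 10000 UMIs, 25.7% and 20.5% with the stricter interferon limit, 48.1% and 38.5% on thinned cells, and 27.9% in the knockdown library with few mesenchymal UMIs. Against the other macrophages, the 11 higher genes became 0 with doublets removed by rank, 258 on thinned cells and 0 with few mesenchymal UMIs, and the 29 lower genes became 60 on thinned cells. Finer clustering gave 12 sub-clusters. Ratios changed sign for Gzmb (-0.60 without sub-cluster 3 and -0.74 without sub-clusters 3, 5 and 7), Gzmc (-0.19 and -0.16), Kcnq5 (-0.45 and -0.57) and Cdca3 (0.056 without cell cycle cells). In cells with few mesenchymal UMIs, Gzmb and Gzmc did not change sign, at 4.98 and 4.79. For the 24 genes with the 12 highest and 12 lowest ratios over all double-low cells, 205 of 264 values stayed within the range of the value reported. For 65 genes named without sub-cluster 3, also tried after seeing the data, 594 of 650 did, and 3 changed sign: Aurkb (0.256 without sub-clusters 3, 5 and 7) and H2ac24 (0.639 there and 0.517 without cell cycle cells). Beyond leaving out cells, the cause of these changes was not tested. Depth limits the reading of Gfpt2, which had 3 control and 4 knockdown UMIs in double-low cells.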
